A study of Mus musculus with 20 samples.

Results

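The Notch pathway was followed here through 10 genes measured in mouse trachea: the receptors Notch1, Notch2, Notch3 and Notch4, the ligands Dll1, Jag1 and Jag2, the target genes Hes1 and Hey1, and the Hes-related gene Hes6. All probes whose gene name on the Agilent array equalled one of these symbols were taken, which gave 15 of the 41174 probes (3 for Notch2, 2 each for Notch1, Jag1 and Hes6, and 1 for every other gene). Of these, 14 passed the filter on dim probes, as did 26063 probes in all, so that each of the 10 genes had at least 1 tested probe. The remaining probe, the second for Jag1 (A_51_P280906), was above background on 1 of 20 arrays, an uninjured Myd88KO array, and was not tested.

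The study asked how loss of Myd88, the adaptor protein that carries signals from most Toll-like receptors and from the interleukin-1 receptor, affects the trachea at rest and during repair. RNA of whole trachea, cleared of surrounding connective tissue, was hybridised to 20 one-colour arrays, 5 in each of 4 groups (C57/Bl6 wild-type and Myd88KO mice, each uninjured or injured), all from mice of 4 months according to the labels. Injured mice had received 2% polidocanol, a detergent that strips the surface epithelium, in the airway 3 days before collection. The knockout was backcrossed to the wild-type strain and then bred separately from the wild-type colony, so that genotype cannot be told apart from colony.

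Notch receptors are single-pass membrane proteins that are activated by Delta-like (Dll) or Jagged (Jag) ligands on a neighbouring cell. Ligand binding leads to cleavage of the receptor, first by an ADAM protease and then by gamma-secretase, and the freed intracellular domain joins the DNA-binding protein Rbpj in the nucleus to switch on Hes and Hey repressors. In airway epithelium the pathway is known for directing progenitors towards secretory rather than ciliated cells, and in vessel walls for shaping endothelial cells and smooth muscle.

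Values below are log2 of the processed signal intensity after subtraction of each array's 75th percentile, so that 0 is the 75th percentile of an array and a difference of 1 is a doubling; they compare groups for 1 probe and do not rank genes against each other. The test was limma's moderated test in a fit of all 20 arrays, with Benjamini-Hochberg adjustment over the 26063 tested probes, and a probe was called at an adjusted p under 0.01. Every slide (5 in all) carried all 4 groups, 1 array of each, which allowed each difference to be read within slides as well. Injured Myd88KO replicate 5 stood apart over the probes called in wild-type injury. Its response had a slope of -0.03 on the mean wild-type response, against 0.34 to 0.97 in the other injured Myd88KO arrays. Injured wild-type arrays gave 0.85 to 1.14. The probes were chosen from these same wild-type arrays, so the ranges do not compare the genotypes. The slope of 0.34 was that of injured Myd88KO replicate 1. When noisier arrays were given lower weights, replicates 1 and 5 of this group had the lowest (0.319 and 0.321, against 0.539 or more elsewhere). Slides 1 and 5 were scanned on 1 of 2 scan days and slides 2 to 4 on the other, so both of these arrays came from the same scan day. The Myd88 probe itself (A_52_P282762) was lower in Myd88KO by 0.21 in uninjured trachea (adjusted p = 1.00) and by 0.77 in injured trachea (adjusted p = 0.00824, and 0.0180 with slide as a block), and where this probe lies relative to the deleted exons is not given in the sources used here. In such bulk tissue, fewer cells of a type and less RNA per cell cannot be told apart. Although cleared of surrounding tissue, the samples also gave signal for skeletal muscle and thyroid markers. Over the 20 arrays the summed linear signal ran from 743 to 2134 times the 75th percentile for skeletal muscle markers. For thyroid markers it ran from 86.3 to 473. The part of such tissue in the differences below was not tested.

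Promoter sequence was available for 8 of the 10 genes, all but Hes1 and Hey1, as 10 windows of 300 bases (250 before the RefSeq start, 50 from it, build GRCm38.p6). None of the 10 held TGGGAA on either strand, the core of the site bound by Rbpj, compared with 25.6% of all 32851 windows, which says only that these letters are not in these windows. The windows of Notch1 and Notch3 are shown because these members followed each other most closely across arrays, and that of the ligand-like gene Dner because it fell after injury in both genotypes (both described below); all 3 are on the minus strand, written 5′ to 3′, with the RefSeq start as the capital letter.
Notch1, chr2:26503773-26504072: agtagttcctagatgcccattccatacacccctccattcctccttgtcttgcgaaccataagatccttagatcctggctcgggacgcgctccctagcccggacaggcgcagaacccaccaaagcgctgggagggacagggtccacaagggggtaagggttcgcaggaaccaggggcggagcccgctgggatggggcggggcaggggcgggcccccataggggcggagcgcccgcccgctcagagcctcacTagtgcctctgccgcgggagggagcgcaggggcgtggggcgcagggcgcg
Notch3, chr17:32166841-32167140: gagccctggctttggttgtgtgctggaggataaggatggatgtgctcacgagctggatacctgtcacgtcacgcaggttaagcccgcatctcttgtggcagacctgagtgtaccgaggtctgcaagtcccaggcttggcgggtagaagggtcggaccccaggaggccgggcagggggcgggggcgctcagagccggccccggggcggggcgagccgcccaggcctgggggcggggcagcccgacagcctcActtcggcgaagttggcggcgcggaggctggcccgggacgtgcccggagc
Dner, chr1:84696172-84696471: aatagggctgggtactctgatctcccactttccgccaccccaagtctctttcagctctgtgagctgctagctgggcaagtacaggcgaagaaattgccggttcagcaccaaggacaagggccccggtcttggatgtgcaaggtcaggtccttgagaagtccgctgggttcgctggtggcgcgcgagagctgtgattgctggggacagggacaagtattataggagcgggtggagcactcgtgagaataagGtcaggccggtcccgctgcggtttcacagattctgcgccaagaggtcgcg
The GC content of these windows was 68.3% for Notch1, 70% for Notch3 and 58.3% for Dner.

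The clearest change was in Hey1, a basic helix-loop-helix repressor switched on by Notch, which fell after injury of wild-type trachea. Its probe (A_51_P258409, chromosome 3, 8669867 to 8669926 in the scanner files, which name no build) gave 2.71, 2.74, 1.83, 1.99 and 2.50 in the uninjured wild-type arrays of slides 1 to 5. The injured wild-type arrays gave 1.37, 1.47, 1.35, 1.32 and 1.16 on the same slides. All 5 injured values lay below the lowest uninjured value, and the injured values were close together, with an SD of 0.11 against 0.42 in uninjured trachea (n = 5 each). The difference was -1.02 on the log2 scale (SE 0.19, 95% interval -1.42 to -0.62), a 2.03-fold lower signal, with limma's adjusted p = 0.00228 in the fit of 20 arrays and 0.00302 with slide as a block. Within slides the difference ran from -1.34 to -0.48 and was negative on 5 of 5.

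Hey1 was the only member called in any of the 5 contrasts. In wild-type injury 1 of 14 member probes was called and 1 of 14 had groups that did not overlap, beside 5.26% of all tested probes called and 12.6% with groups that did not overlap. At an unadjusted p under 0.05 there were 4 of 14 member probes, beside 26.4% of all tested probes. The members' share therefore lay near that of the array as a whole.

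**Figure D1:**
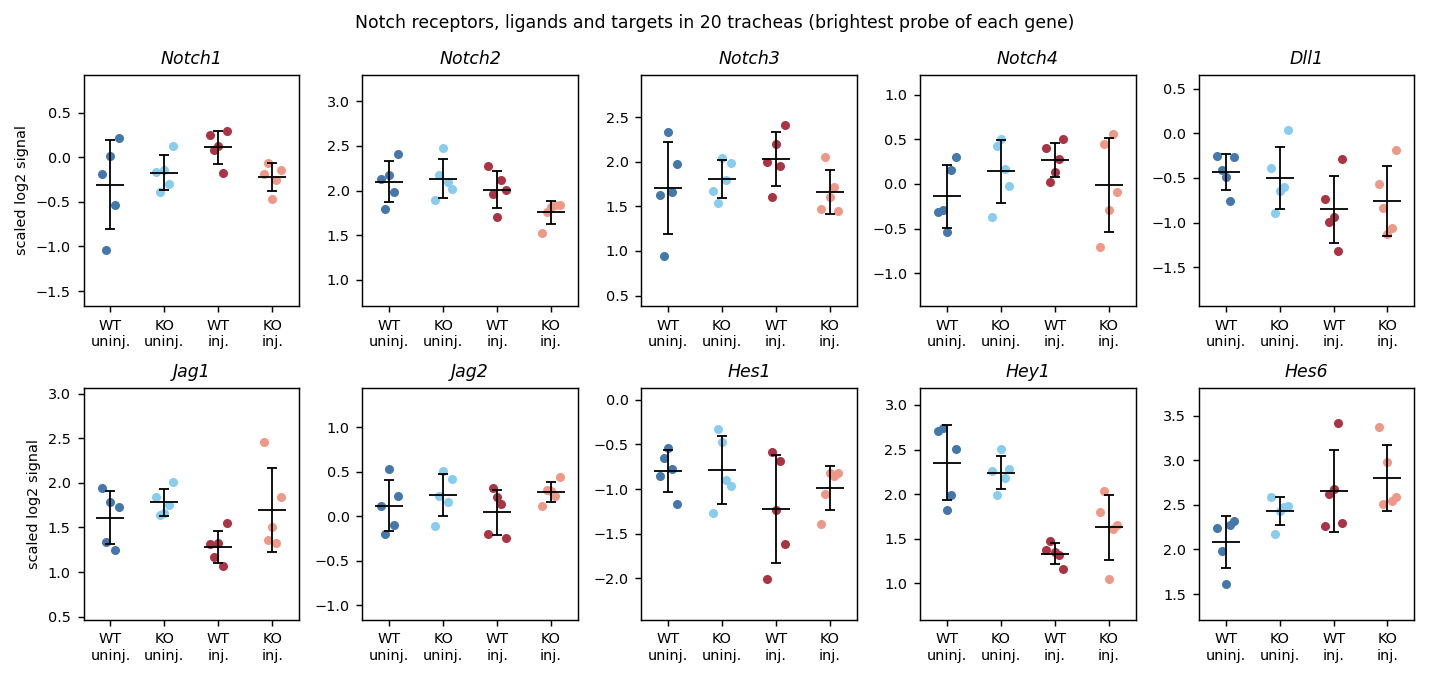
Scaled log2 signal of the brightest probe of each of the 10 genes in each array, by group (WT, wild-type; KO, Myd88KO; uninj., uninjured; inj., injured with polidocanol 3 days earlier). Points are single arrays (5 per group), bars are the mean and SD, and every panel spans 2.6 log2 units. Hey1 is the gene whose uninjured and injured wild-type arrays do not overlap.

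In Myd88KO trachea the Hey1 difference pointed the same way but was not called. The uninjured Myd88KO arrays of slides 1 to 5 gave 2.26, 1.99, 2.51, 2.18 and 2.28, and the injured ones 1.80, 2.04, 1.05, 1.61 and 1.65. The groups overlapped because the injured array of slide 2 lay above its uninjured partner, while the other 4 slides were lower by 0.47 to 1.46. The difference was -0.61 (SE 0.19, 95% interval -1.02 to -0.21, limma adjusted p = 0.0851, 0.0554 with slide as a block), and -0.62 without injured Myd88KO replicate 5 (adjusted p = 0.0593). The responses of the genotypes were not shown to differ: the difference of the 2 differences was 0.41 (95% interval -0.16 to 0.98, adjusted p = 0.599). By group mean the order was uninjured wild-type (2.35), uninjured Myd88KO (2.24), injured Myd88KO (1.63) and injured wild-type (1.33). No step between neighbours in this order was called. The genotype differences were -0.11 in uninjured (limma adjusted p = 1.00) and 0.29 in injured trachea (adjusted p = 0.561). The Myd88KO injury difference between them, given above, had a 95% interval that was negative throughout but missed the adjusted threshold.

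**Figure D2:**
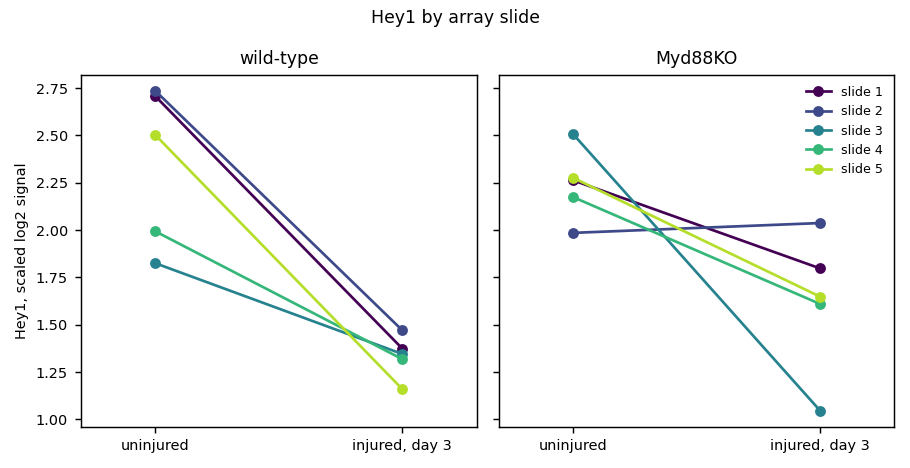
Hey1 scaled log2 signal of uninjured and injured trachea, with a line joining the arrays of each of the 5 slides, in wild-type (left) and Myd88KO (right). All 5 wild-type lines fall, by 0.48 to 1.34, and 4 of 5 Myd88KO lines fall, the line of slide 2 staying level (0.05).

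Cell type markers moved in the same contrast as Hey1. In wild-type injury 4 of 8 secretory marker genes were called lower, 1 of 11 multiciliated genes was called lower, 5 of 10 proliferation genes and 3 of 9 myeloid genes were called higher, and 0 of 10 endothelial and 0 of 10 smooth muscle and pericyte genes were called. Of all tested probes 5.26% were called in this contrast. The summed linear signal of the secretory markers ran from 1842 to 3287 times the 75th percentile in uninjured wild-type arrays and from 983 to 1201 in injured ones, without overlap. That of the multiciliated markers ran from 47.7 to 75.4 in uninjured wild-type arrays. In injured ones it was 15.1 and 16.6 in replicates 1 and 5 and from 71.7 to 136 in the others. That of the endothelial markers, cells in which Hey1 is also known to act, ran from 24.9 to 39.3 and from 29.6 to 60.01, and that of the smooth muscle and pericyte markers from 278 to 315 and from 231 to 379. The part of these cell types in the Hey1 difference was not tested.

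The probes whose levels followed Hey1 most closely over the 20 arrays were those of Inhbb (Pearson r = 0.85), an activin and inhibin subunit, Sec14l4 (0.83), a lipid-binding protein, and Slc46a3 (0.83), a solute carrier. These arrays share slides, groups and a tissue, and after the 4 group means had been taken out the same values were 0.40, 0.35 and 0.54, lower than over all arrays. Among the other members the closest to Hey1 was Dll1 (0.55, and 0.28 within groups).

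Hes1, the other classical target and a repressor of neural and ciliated cell differentiation, was not called in any contrast. Its values in injured wild-type arrays were -2.01, -0.59, -1.24, -0.69 and -1.61, a wider spread (SD 0.60) than in uninjured wild-type arrays (-0.86, -0.65, -0.54, -0.78 and -1.17, SD 0.24). The low injured values came from slides 1, 3 and 5, and those of slides 2 and 4 lay within the uninjured range. The difference was -0.43 in wild-type injury (95% interval -0.94 to 0.08, limma adjusted p = 0.282) and -0.20 in Myd88KO injury (95% interval -0.71 to 0.31, adjusted p = 0.701). Hes1 followed Scrn2 (r = 0.93), Ephx1 (0.92), an epoxide hydrolase, and Unc13d (0.92), a regulator of vesicle release, over the 20 arrays and nearly as closely within groups (0.92, 0.94 and 0.92). Hes1 and Hey1 did not follow each other (r = 0.29, -0.15 within groups).

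Hes6, which is known to oppose Hes1 and to favour differentiation, was measured by 2 probes. The brighter one (A_51_P429366) gave 2.24, 1.98, 1.61, 2.27 and 2.32 in uninjured wild-type arrays and 2.26, 2.62, 2.68, 3.41 and 2.30 in injured ones. Its highest value was that of slide 4, and the groups overlapped. The difference was 0.57 (95% interval 0.13 to 1.02, limma adjusted p = 0.0868), positive on 4 of 5 slides. The second probe (A_52_P512301) differed by 0.26 (adjusted p = 0.525). In Myd88KO injury the differences of the probes were 0.37 and 0.40 (adjusted p = 0.356 and 0.364), positive on 5 and 4 of 5 slides, and the difference between the genotypes' responses was -0.20 and 0.14 (adjusted p = 0.839 and 0.903).

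The receptors, 7 probes in all, were called in no contrast. In wild-type injury 6 of 7 receptor probes had a positive difference, with a median of 0.33 beside 9.9e-05 over all tested probes. In this contrast 9 of 10 endothelial and 7 of 10 smooth muscle and pericyte marker genes were also positive (medians 0.34 and 0.20). The part of these cell types in the receptor differences was not tested. Notch1, the receptor best known in epithelial progenitors, had the larger differences on both of its probes, which lie next to each other and are not independent. Its brighter probe (A_51_P508510) gave -0.19, -1.04, 0.02, -0.54 and 0.22 in uninjured and 0.25, 0.08, 0.13, -0.18 and 0.29 in injured wild-type arrays. Each injured array was above the uninjured array of its slide, although the groups overlapped because uninjured values differed widely between slides. The difference was 0.42 (95% interval 0.02 to 0.82, limma adjusted p = 0.161, 0.0888 with slide as a block), and 0.49 on the second probe, A_52_P183088 (adjusted p = 0.126, 0.0533 with the block). In Myd88KO injury these probes differed by -0.05 and -0.07 (adjusted p = 0.915 and 0.897).

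Notch2 was measured by 3 probes whose injury differences, none of them called, did not share a sign in either genotype. In Myd88KO the brightest (A_52_P289213) gave 1.89, 2.18, 2.47, 2.10 and 2.02 uninjured and 1.53, 1.76, 1.82, 1.84 and 1.84 injured. Every injured value lay below every uninjured one, which made it 1 of 14 member probes with groups that did not overlap in this contrast, beside 3.45% of all tested probes. The difference was nevertheless small, -0.38 (95% interval -0.68 to -0.07, limma adjusted p = 0.160). The dimmest Notch2 probe (A_51_P216397) differed by -0.40 (adjusted p = 0.210) and the remaining one (A_52_P448796) by 0.08 (adjusted p = 0.885). In wild-type injury the 3 probes differed by -0.09, 0.16 and 0.23 in the order brightest, dimmest, remaining.

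Notch3, the receptor of vascular smooth muscle, ran from 0.94 to 2.33 in uninjured and from 1.61 to 2.41 in injured wild-type arrays, with a difference of 0.33 (95% interval -0.12 to 0.77, limma adjusted p = 0.349). In Myd88KO it ran from 1.54 to 2.04 and from 1.44 to 2.05, and the difference was -0.15 (adjusted p = 0.745). Notch4, which is known mainly from endothelium, differed by 0.41 in wild-type injury (95% interval -0.08 to 0.89, adjusted p = 0.284), with a positive value on 5 of 5 slides, and by -0.16 in Myd88KO injury (adjusted p = 0.760). Of all pairs of members, Notch1 and Notch3 followed each other most closely (r = 0.79 over 20 arrays, 0.74 within groups), over arrays and slides that both probes share.

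The ligands were called in no contrast. Dll1, a Delta-like ligand, gave -0.25, -0.41, -0.48, -0.76 and -0.27 in uninjured and -0.73, -0.997, -0.94, -1.31 and -0.28 in injured wild-type arrays. The injured array was the lower one on 5 of 5 slides, by 0.02 on slide 5 and by 0.45 to 0.59 on the others. The difference was -0.42 (95% interval -0.87 to 0.03, limma adjusted p = 0.221), and slide as a block brought the adjusted p to 0.0328, still above the threshold. In Myd88KO injury it was -0.26 (adjusted p = 0.539).

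Jag1 gave 1.94, 1.34, 1.79, 1.25 and 1.73 in uninjured and 1.31, 1.16, 1.32, 1.07 and 1.54 in injured wild-type arrays (A_52_P634090). This was again lower on 5 of 5 slides, with overlapping groups and a difference of -0.33 (95% interval -0.73 to 0.08, limma adjusted p = 0.305). In Myd88KO injury the Jag1 difference was -0.08 (adjusted p = 0.858), where injured replicate 1, at 2.46, was well above the other 4 arrays (1.33 to 1.84). Jag2 differed by -0.07 in wild-type and 0.03 in Myd88KO injury (adjusted p = 0.816 and 0.936), with 95% intervals of -0.41 to 0.26 and -0.30 to 0.37. Dll1 and Jag1 followed each other across arrays (r = 0.65, 0.66 within groups), as did Jag2 and Hes1 less closely (0.56 and 0.57).

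In Myd88KO injury as a whole, 0 of 14 member probes were called, beside 0.376% of all tested probes, and 3 of 14 had an unadjusted p under 0.05, beside 19.5% of all tested probes. The share of all probes called here rested on single arrays: 98 probes were called with 20 arrays, 1075 (4.12%) without injured Myd88KO replicate 5, 6 without injured Myd88KO replicate 2 or 4, 7 without uninjured Myd88KO replicate 3 and 1901 (7.29%) with array weights, and 0 of 14 member probes were called in each of these. The 3 member probes with an unadjusted p under 0.05 were Hey1 and 2 of the Notch2 probes, all negative. The test of the study's methods was a one-way parametric test on the groups compared. By that test 0 of 14 passed an unadjusted p of 0.01, beside 4.89% of all tested probes.

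**Figure D3:**
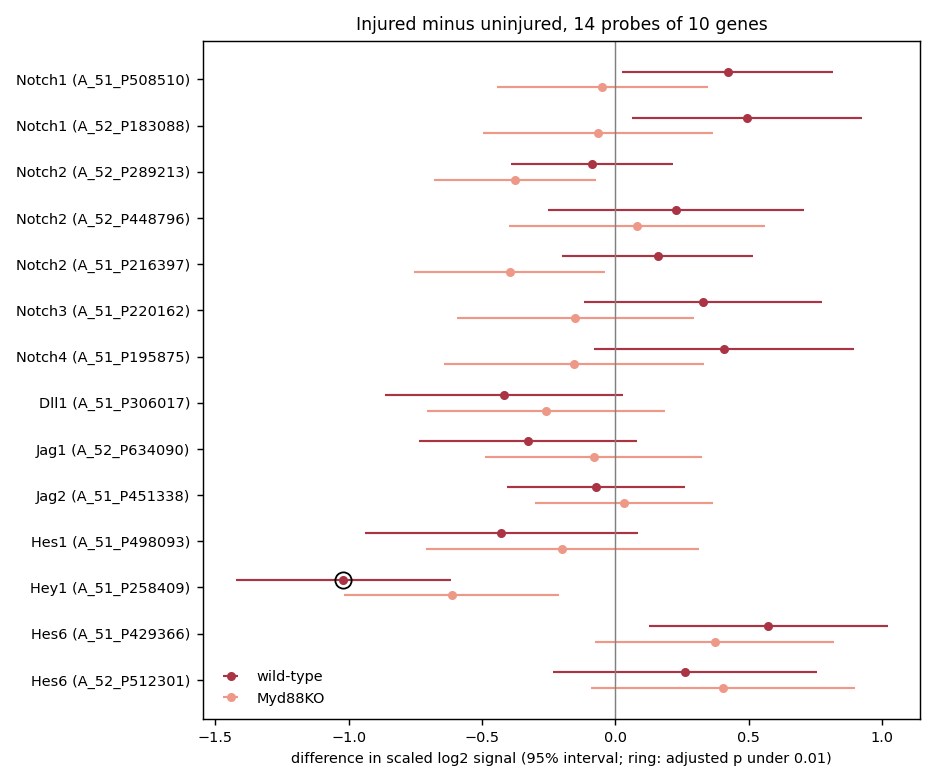
Injured minus uninjured difference of the 14 tested member probes in scaled log2 signal, with 95% intervals, in wild-type (dark) and Myd88KO trachea (light), ordered as receptors, ligands, targets and Hes6. The ring marks the called probe, Hey1 in wild-type (-1.02), and all 7 receptor probes have a lower difference in Myd88KO than in wild-type.

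Between genotypes at rest no member was called. In uninjured trachea 0 of 14 member probes were called, beside 0.384% of all tested probes. For 0 of 14 the groups did not overlap, beside 2.51% of all tested probes, and 0 of 14 had an unadjusted p under 0.05, beside 5.59%. Differences, Myd88KO minus wild-type, ran from -0.22 for a Notch2 probe to 0.35 for the brighter Hes6 probe, which was higher on 5 of 5 slides (95% interval -0.10 to 0.79, limma adjusted p = 1.00).

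In injured trachea 0 of 14 member probes were called between genotypes, beside 0.38% of all tested probes. For 0 of 14 the groups did not overlap, beside 1.96% of all tested probes. An unadjusted p under 0.05 was found for 2 of 14, beside 12.5% of all tested probes, so the members' share lay near that of the array. All 7 receptor probes were lower in Myd88KO, with differences of -0.44 to -0.25 and a median of -0.36 beside -0.03 over all tested probes. The lower end was the dimmest Notch2 probe, A_51_P216397 (-0.44, 95% interval -0.80 to -0.08, limma adjusted p = 0.284, and -0.22 with normexp background correction), and the Notch1 probes differed by -0.34 and -0.41 (adjusted p = 0.483 and 0.423), each lower on 5 of 5 slides. Without injured Myd88KO replicate 5 these 3 differences were -0.51, -0.36 and -0.46. The Jag1 probe differed by 0.42 (95% interval 0.01 to 0.83, adjusted p = 0.385, higher in Myd88KO on 5 of 5 slides), by 0.23 without injured Myd88KO replicate 1 and by 0.18 with array weights, and the Jag2 probe by 0.23. Dll1 had no settled direction: its difference was 0.10 with 20 arrays, -0.05 without injured Myd88KO replicate 5, -0.02 without injured wild-type replicate 4 and -0.14 with array weights. Target and Hes6 probes had differences of 0.14 to 0.29.

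**Figure D4:**
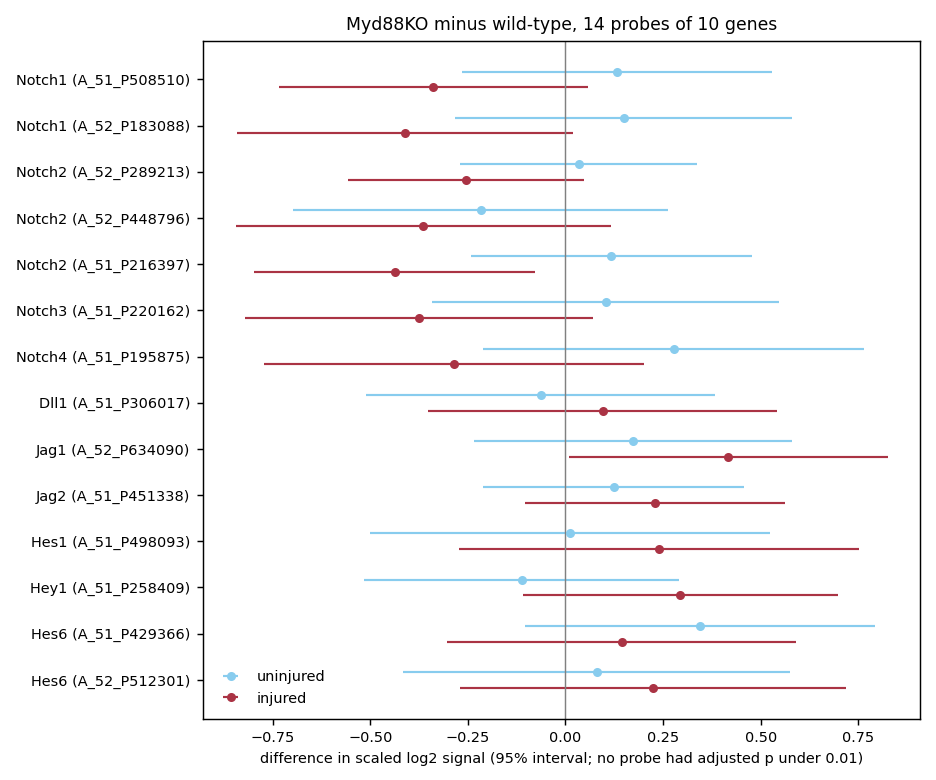
Myd88KO minus wild-type difference of the 14 tested member probes in scaled log2 signal, with 95% intervals, in uninjured (light blue) and injured trachea (red). No probe was called; in injured trachea the 7 receptor probes lie between -0.44 and -0.25 and the other 7 probes between 0.10 and 0.42.

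The difference of injury responses, Myd88KO minus wild-type, was called for 0 of 14 member probes and for 0% of all tested probes. It was negative for 7 of 7 receptor probes (median -0.48, beside -0.09 over all tested probes) and positive for 3 of 3 ligand probes (median 0.16), although with array weights Dll1 and Jag1 were at -0.03 each. The sizes were -0.47 and -0.56 for Notch1, -0.56 (-0.19 with normexp background correction), -0.29 and -0.15 for Notch2, -0.48 for Notch3 and -0.56 for Notch4, with adjusted p from 0.461 to 0.896. This contrast shares its injured wild-type arrays with both the wild-type injury and the injured genotype contrast, and several of the probes share a gene, so that the common sign is not repeated evidence. In the difference of injury responses 9 of 10 endothelial and 8 of 10 smooth muscle and pericyte marker genes were negative as well (medians -0.61 and -0.39). All 9 myeloid and 6 of 10 proliferation marker genes were negative there (medians -0.85 and -0.14), and all 11 multiciliated ones positive (median 0.62). In the injured genotype contrast 9 of 10 endothelial and 8 of 10 smooth muscle and pericyte marker genes had a negative difference (medians -0.38 and -0.19), with 0 of 10 called in either list. All 9 myeloid and all 10 proliferation marker genes also had a negative difference (medians -1.41 and -0.61), and all 11 multiciliated marker genes a positive one (median 0.72), with 0 called in each of these 3 lists. The part of those cell types in the receptor differences was not tested.

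Around the members, 49 further genes of the pathway were examined, of which 42 had a tested probe (65 of 80 probes). In wild-type injury 1 of 65 was called and in Myd88KO injury 2 of 65, against 5.26% and 0.376% of all tested probes. With single arrays left out the share of all probes in wild-type injury ran from 2.55% (without uninjured wild-type replicate 2) to 7.07% (without injured Myd88KO replicate 5). Without injured Myd88KO replicate 5 the pathway counts were 4 of 65 in wild-type and 3 of 65 in Myd88KO injury. The shares of all tested probes beside them were 7.07% and 4.12%, so the Myd88KO pathway count was not set apart from the array in that fit. All 3 calls with 20 arrays were Dner, an EGF-repeat protein of neurons that has been described as a Notch ligand. Its probe A_51_P278368 gave -2.14, -2.06, -2.41, -1.88 and -1.86 in uninjured and -3.06, -3.25, -3.50, -2.83 and -2.34 in injured wild-type arrays. In Myd88KO it gave -1.59, -1.62, -1.36, -1.76 and -1.84 uninjured and -3.30, -3.64, -3.06, -3.26 and -2.72 injured. The wild-type groups overlapped by 1 array on either side, and the Myd88KO groups did not overlap. Dner fell by 0.93 in wild-type (limma adjusted p = 0.00525) and by 1.56 in Myd88KO injury (adjusted p = 0.00120), a 2.95-fold lower signal, and in both it was lower on 5 of 5 slides. The wild-type call was lost on leaving out any of 7 single arrays (uninjured wild-type replicate 1, 2, 4 or 5, or injured wild-type replicate 1, 2 or 3; adjusted p up to 0.0172), and the Myd88KO call on leaving out none of 20.

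The second Dner probe (A_52_P671132) fell by 1.498 in Myd88KO injury (limma adjusted p = 0.00290), while its difference of -0.87 in wild-type missed the threshold (adjusted p = 0.0125, and 0.00877 with slide as a block). Its Myd88KO call was lost without uninjured Myd88KO replicate 1 or 3 or injured Myd88KO replicate 2 or 4 (adjusted p up to 0.0132). The responses of the genotypes were not shown to differ for either probe (-0.63 for both, adjusted p = 0.469 and 0.487). Neuroendocrine marker genes, the airway cells nearest to neurons, were called lower for 0 of 5 genes in wild-type and 1 of 5 in Myd88KO injury. Their medians were -0.77 and -1.35, and 1 of 5 had a positive difference in wild-type. Their summed linear signal varied widely, from 3.30 to 86.7 in uninjured and from 3.43 to 566 in injured wild-type arrays. Thyroid marker genes had medians of -0.10 and -1.24 in the same contrasts, with 0 of 4 called in either. The part of either cell type in the Dner difference was not tested.

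Other ligand-like genes had negative differences without a call. Dlk1, an atypical ligand of preadipocytes and muscle, differed by -1.07 and -1.02 on its probes in wild-type injury (limma adjusted p = 0.0323 and 0.0298) and by -1.36 and -1.22 in Myd88KO injury (adjusted p = 0.0275 and 0.0320). Dlk2 differed by -0.40 in wild-type and -0.13 in Myd88KO injury (adjusted p = 0.108 and 0.699). All 6 tested ligand-like probes were negative in both genotypes.

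Among the proteases, 0 of 13 probes were called in wild-type injury. Aph1b, a gamma-secretase subunit, differed by -0.63 on its brightest probe (limma adjusted p = 0.0119, and 0.00675 with slide as a block, which made the call), by -0.65 on the second and by 0.23 on the third. Adam10, the protease of the first cleavage, differed by 0.62 in wild-type and 0.77 in Myd88KO injury (adjusted p = 0.0669 and 0.0573), and Ncstn, another gamma-secretase subunit, by 0.56 and -0.09 (adjusted p = 0.240 and 0.906).

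The enzymes that add sugars to Notch had positive differences on 6 of 6 probes in wild-type injury and 3 of 6 in Myd88KO injury, with 0 of 6 called in either. Pofut1, which attaches fucose to the receptor, differed by 0.70 in wild-type on one probe (A_52_P183432, limma adjusted p = 0.0137) but by 0.25 on the other. Lfng, which extends that fucose and shifts the choice of ligand, differed by 0.70 (adjusted p = 0.0257) and Rfng by 0.43 (adjusted p = 0.274). In Myd88KO injury these 3 genes differed by -0.08, 0.31 and 0.03.

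Of the nuclear complex 0 of 13 and of the other targets 0 of 6 probes were called in either injury contrast. Rbpj, the DNA-binding partner, differed by 0.52 in wild-type and 0.23 in Myd88KO injury (limma adjusted p = 0.213 and 0.674). The co-activator Maml2 differed by -0.49 in wild-type injury (limma adjusted p = 0.387). Nrarp, a feedback inhibitor and sensitive Notch target, differed by -0.33 (adjusted p = 0.558), Hes2 by 0.88 on its dimmer probe (adjusted p = 0.348) and Bhlhe40 by 0.24 (adjusted p = 0.478). The sister genes Hes3, Hes5, Hes7 and Hey2 had no probe that passed the filter.

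Among genes of endocytosis and turnover 0 of 21 probes were called in either injury contrast. The ubiquitin ligase gene Dtx4 differed by 0.58 on 1 of its 3 probes in wild-type injury (limma adjusted p = 0.0290) and by 0.14 on each of the others, Neurl1a by -0.53 (adjusted p = 0.292) and Mib1, which acts in the ligand-bearing cell, by -0.39 on 1 of its 3 probes (adjusted p = 0.477).

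Between genotypes, 0 of 65 pathway probes were called in uninjured and 1 of 65 in injured trachea, against 0.384% and 0.38% of all tested probes. The call was a probe of Itch (A_52_P209852), a ubiquitin ligase that marks Notch for removal. It gave -3.57, -3.36, -3.46, -2.69 and -3.40 in uninjured and -2.60, -3.80, -3.36, -3.84 and -2.79 in injured wild-type arrays. Myd88KO arrays gave -5.16, -4.69, -6.21, -5.22 and -4.52 uninjured and -6.28, -5.47, -4.57, -5.02 and -6.56 injured, below every wild-type array. These Myd88KO values lay within the range of the Jag1 probe left out of the tests as too dim (-7.30 to -4.41). Signals this low can be near background, so the size of the Itch difference is uncertain. The difference was -2.30 in injured (limma adjusted p = 0.00216) and -1.86 in uninjured trachea (adjusted p = 0.0176), and with slide as a block neither was called (adjusted p = 0.0123 and 0.0593). The injured call was also lost without injured wild-type replicate 5 (adjusted p = 0.0101). The brighter Itch probe (A_51_P243503) pointed the other way, 0.57 higher in injured (adjusted p = 0.106) and 0.42 higher in uninjured Myd88KO trachea (adjusted p = 0.533), so that Itch as a gene had no single direction.

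**Figure D5:**
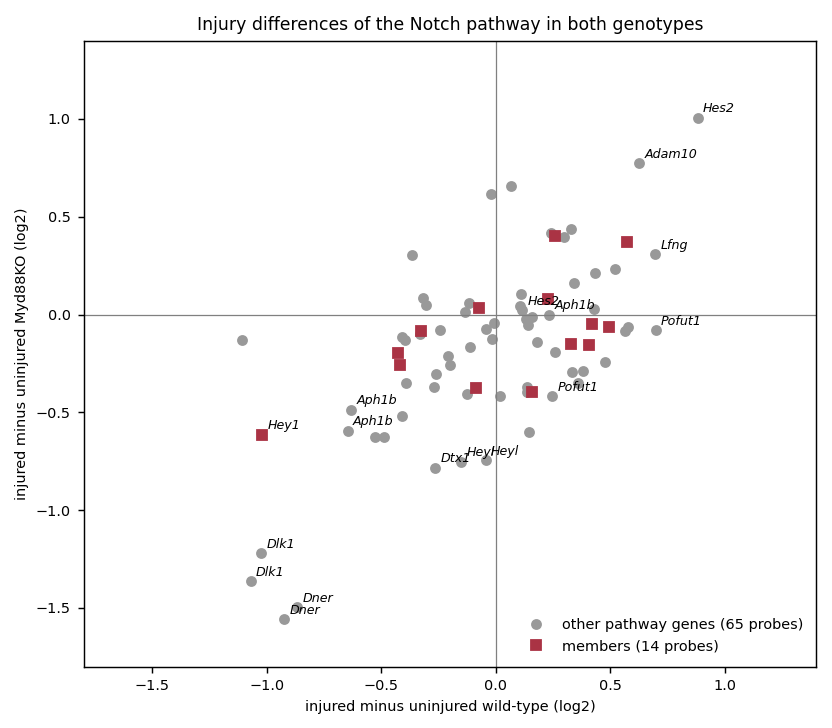
Injured minus uninjured difference in log2 signal in wild-type (horizontal) against Myd88KO trachea (vertical) for the 14 member probes (squares) and the 65 probes of other pathway genes (circles), with the names of genes given in the text or further from 0. The lower left holds Dner (-0.93 and -1.56), Dlk1 and Hey1, and most other probes lie near the crossing of the axes.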

How the data were processed

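RNA of 20 whole tracheas was hybridised by the authors to Agilent 1-colour arrays and read with Agilent Feature Extraction 9.5.1.1. The deposited scanner files hold for each spot a processed signal, already background-corrected by that software, beside its mean and background signals. The deposited value table holds the same processed signal as an intensity on a linear scale. Here control spots and outlier-flagged spots were left out, log2 of the processed signal was taken from the deposited intensities, spots of a probe were averaged, and each array's 75th percentile over probes was subtracted. Probes well above background on at least 10 of 20 arrays were tested with limma 3.58.1 in R 4.3.3, with 4 group means, 5 contrasts and Benjamini-Hochberg adjustment over all 26063 tested probes within each contrast. The adjusted p threshold, 0.01, and the presence filter follow the study's methods. Array number limits the precision. The p-values rest on the spread between mice within the 4 groups, pooled over all 20 arrays and moderated across the tested probes.

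All probes of the 10 members were named. Of the other pathway genes, those with a called probe were named, and for each role up to 3 genes with the largest difference in wild-type injury were given as values, 1 of which is not reported here. For likeness, the 3 probes of other genes with the highest Pearson r were taken. Members and lists were chosen with earlier results of these data known. Of 30 pairs of arrays with the same number in different groups, 23 had a correlation of deviations from group means over 0.1 (range -0.26 to 0.48). The number is also the array slide, so slide was fitted as a block beside the unblocked fit. Names were updated through RefSeq accessions and symbols; 8455 of 41174 probes kept the name in the file. The fit was tested on simulated data. Promoter windows are from RefSeq, build GRCm38.p6. Alternatives covered background correction, scaling, the value table, filters, blocks, array weights, other tests and leaving out each array.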

Additional observations from a re-analysis of the deposited data

Results flagged for a closer look

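In 1 of 60 groups of 5 arrays examined (15 member probes in 4 groups), a single array lay apart from the rest by Dixon's test, which chance does in about 1 of 20 groups. Injured Myd88KO replicate 1 had a Notch2 value of 1.53 (A_52_P289213), with the other 4 arrays of its group between 1.76 and 1.84.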

How the results depend on the processing

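The number of member probes called was the same under every alternative run in the 4 contrasts with none (0 throughout), and in wild-type injury it was 1 under 12 of 13 alternatives and with any 1 array left out (1 to 1). The exception, with 0, was a t-test on only the groups compared, after Benjamini-Hochberg adjustment. It was run in place of the test of the study's methods, and is called the methods' t-test here. In it Hey1 had a difference of -1.02 and an adjusted p of 0.0147. Over the alternatives run with the same threshold the Hey1 difference ran from -1.06 to -0.95, and with 1 array left out from -1.15 to -0.92 (adjusted p 0.00146 to 0.00883). Receptor, ligand and Hes differences were called under none, and of 868 values for members under other settings 8, and of 1400 with 1 array left out 23, had the opposite sign, all uncalled. The replicate block changed no member call. Counts of other pathway probes moved more. In wild-type injury (1) they were 2 with quantile normalization and with median scaling, 4 with the replicate block, 5 with scan day as a block, 7 with array weights, 8 at an adjusted p under 0.05, 0 in a fit of only the groups compared, 7 by the methods' t-test unadjusted and 0 adjusted, and 0 to 4 with 1 array left out (4 without injured Myd88KO replicate 5). In Myd88KO injury (2) they were 4 with scan day, 8 with array weights, 6 at 0.05, 0 in the fit of only the groups compared, 8 and 0 by the methods' t-test, and 1 to 3 with 1 array left out. Between uninjured genotypes (0) they were 1 with median scaling, with array weights and at 0.05, 4 by the unadjusted t-test, and 0 to 1 with 1 array left out. Between injured genotypes (1) they were 0 with normexp, with the replicate block, in the fit of only the groups compared and by the adjusted t-test, 2 with scan day, 4 by the unadjusted t-test, and 0 to 1 with 1 array left out (0 without injured wild-type replicate 5). The cause was not tested. With 5 arrays a group, the 95% intervals of member differences between 2 groups spanned 0.61 to 1.02 log2 units. The median of all tested probes in the difference of injury responses was -0.09, -0.04 with quantile normalization, -0.07 with normexp and -0.11 with median scaling.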

Other observations

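The dim Jag1 probe left out of the tests (A_51_P280906) ran from -7.30 to -5.51 in uninjured wild-type, from -6.52 to -4.41 in uninjured Myd88KO, from -7.14 to -5.56 in injured wild-type and from -6.05 to -5.74 in injured Myd88KO arrays. The highest of these values, in uninjured Myd88KO replicate 5, was the array on which the probe was above background.

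Of the remaining members, Notch4 followed Ghdc and Shank3 (r = 0.89 for both over 20 arrays) and Arhgef15 (0.87), a regulator of endothelial cells, and kept these values within groups (0.89, 0.90 and 0.86). Notch3 followed Fam171a2 (0.85), Notch1 followed Smap1 (0.91), Wasf2 (0.88) and Twf1 (0.88), the last pair being regulators of actin, and Jag1 followed Mylip (0.85) and Gphn (0.83). Dll1 followed Map2k3os (0.91), Mtdh (0.90) and Arih1 (0.89). In Myd88KO injury, pathway genes outside the naming rule with an adjusted p under 0.05 were Heyl, a Hey-family target (-0.75 on A_52_P337259, limma adjusted p = 0.0275, beside -0.04 in wild-type), and Dtx1, a regulator of receptor traffic (-0.78, adjusted p = 0.0198, beside -0.26 in wild-type); these were picked after their values were seen.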
